A study of Mus musculus with 8 samples.

Results

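The nuclear-encoded genes of oxidative phosphorylation were followed in ribosome-associated RNA from mouse liver, across 2 genotype labels with and without bile duct ligation (BDL). Members were the genes of the count table whose symbols name subunits of complexes I to V: Ndufa, Ndufb, Ndufc, Ndufs and Ndufv genes, Sdha to Sdhd, Uqcr genes, Cox4i to Cox8 genes and Atp5 genes. The rule used names and no measured value, and it found 85 of 24982 genes. Complex I had 38 of them, complex II 4, complex III 8, complex IV 18 and complex V 17. The symbols take in 4 genes that are not subunits of the complex they are named for: Ndufa4, whose product is found with complex IV, its relative Ndufa4l2, Atp5s, a coupling factor of the ATP synthase, and Ndufb4c, which the GENCODE vM21 annotation lists as a processed pseudogene. No gene encoded by mitochondrial DNA is in the count table used here, so the subunits made inside the organelle, such as those of the cytochrome b and ND families, were not analysed here.

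The 8 libraries fall into 4 groups of 2, numbered here as replicates 1 and 2, since the labels carry no replicate numbers. Livers of LysM-Cre:Ribotag mice, referred to as wild type, were taken from controls and from mice 17 days after BDL, which blocks bile flow and leads to cholestasis and fibrosis. Mice of genotype LysM-Cre:Hmoxflfl:Ribotag, which also carry the floxed gene of heme oxygenase-1 (HO-1), gave the other control and BDL groups. All 4 groups carry the LysM-Cre driver, an allele of the myeloid gene Lyz2 that is active in phagocytes and granulocytes, and the RiboTag allele, which puts an epitope tag on a ribosomal protein in cells with Cre so that their ribosomes and bound RNA can be pulled out of the liver. The labels give no age, and libraries without Cre or from input RNA were not analysed here.

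Oxidative phosphorylation is the last stage of respiration in the inner mitochondrial membrane. Complexes I and II take electrons from NADH and succinate, complex III passes them to cytochrome c, complex IV hands them to oxygen, and the proton gradient built on the way drives complex V, the ATP synthase. Most subunits are made from nuclear genes, and transcription factors such as NRF1 and the ETS factor GABP are known to bind many of their promoters; the hepatocyte is a cell type with a high mitochondrial content, while activated macrophages are known for shifts between respiration and glycolysis.

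Total counts were 9.81 to 40.9 M per library. Between 10.3% and 66.8% of them fell on RN45S, the precursor of ribosomal RNA, and 3.25 to 31.6 M counts were left for all other genes. Xist and Ddx3y marked 1 library, wild-type BDL replicate 1, as female and the other 7 as male, and replicate 2 of BDL labelled HO-1 deleted had the fewest counts. Hmox1 RNA went against the genotype label: it was at 6.22 and 7.46 CPM (counts scaled to the effective size of each library) in wild-type controls and at 22.5 and 29.9 CPM in controls labelled deleted. It was at 26.0 and 24.0 CPM in wild type after BDL and at 72.3 and 95.5 CPM in BDL labelled deleted. For this reason the second genotype is named by its label only, as the libraries labelled HO-1 deleted. The labels name the cells as myeloid. Of counts other than RN45S, 8 hepatocyte markers made up 3.44% to 5.87% per library, while the share was 0.0262% to 0.0909% for 6 Kupffer cell markers and 0.00992% to 0.0407% for 7 markers of monocyte-derived macrophages. In such a pulldown from whole tissue, fewer cells of a type and less RNA per cell cannot be told apart.

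Letters bound by NRF1 are found in the promoters of some members, and they are printed here as background. Any part of NRF1 in the changes after BDL was not tested. RefSeq (GRCm38.p6) gave promoter windows, 250 bases before to 50 after the start, for 68 of the 85 members. The NRF1 letters, GCGCA and GCGC with 1 base of any kind between them, on either strand, were in the windows of 17 of these 68 members (25%), against 5.19% of 27025 genes with windows of the same length. The ETS letters CCGGAAG, also on either strand, were in 16 (23.5%, against 9.93% of all genes) and the YY1 letters AANATGGCG in 10 (14.7%, against 2.76%), with no overlap between matches of different motifs in any member window. A match is a run of letters and no measure of binding. Of the members with the letters before the start, Ndufa5, Ndufs6, Atp5c1 and Atp5k were called lower after BDL in wild type. Ndufa8, Sdha, Sdhd, Cox6a1, Ndufa11, Ndufb4, Ndufs5, Atp5g2 and Atp5h were not called, and 6.59% of all genes were called lower. The lines below show 30 bases around the NRF1 letters, which are in capitals, 5′ to 3′ on the gene's strand. They are a selection of 8 of these members, from complexes I, II, IV and V, and hold all the called ones.
Ndufa5: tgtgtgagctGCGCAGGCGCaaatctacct
Ndufa8: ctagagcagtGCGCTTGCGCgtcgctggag
Ndufs6: ccgccgactgctgtGCGCCTGCGCcggcac
Sdha: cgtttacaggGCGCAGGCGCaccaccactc
Sdhd: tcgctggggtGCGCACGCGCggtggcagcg
Cox6a1: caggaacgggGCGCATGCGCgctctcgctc
Atp5c1: cgcctgagctcccGCGCACGCGCactgagt
Atp5k: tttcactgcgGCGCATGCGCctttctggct

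These stretches lie on the minus strand of GRCm38.p6 at chr6:24527697-24527726 (Ndufa5), chr2:36049349-36049378 (Ndufa8), chr13:73328483-73328512 (Ndufs6), chr13:74350319-74350348 (Sdha), chr9:50603909-50603938 (Sdhd), chr5:115349101-115349130 (Cox6a1), chr2:10080433-10080462 (Atp5c1) and chr5:108434430-108434459 (Atp5k). Relative to the RefSeq start, the first base of the letters was at -16 in Ndufs6, -17 in Atp5c1, -50 in Atp5k, -98 in Sdha and -162 in Cox6a1. In wild type after BDL, the median log2 fold change was -0.68 over the 17 tested members with them, of which 5 were called lower, and -0.71 over the 48 tested members without them, of which 17 were called lower. The difference between these medians was not tested.

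Levels of different genes were compared per length, on the authors' FPKM (fragments per kilobase of transcript, scaled to the mapped fragments). The highest mean levels over the 8 libraries were those of the catalytic pair of the ATP synthase, Atp5b at 97.7 FPKM and Atp5a1 at 84.4 FPKM. Uqcrh, the hinge protein of complex III, followed at 77.1 FPKM, then Cox6b1 at 73.6, Cox4i1 at 72.4 and Uqcr11 at 68.7 FPKM. In single libraries the FPKM of Atp5b ran from 35.1 to 204 and those of Cox4i1 from 36.9 to 134, so the libraries spread more widely than neighbours in this order differ. Within each of the 8 libraries, however, Atp5b was above Atp5a1.

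Complex IV has subunits with separate genes for muscle, lung or testis and for other tissues, and in these libraries the forms found in liver carried nearly all of the signal. Cox4i1, the common form of the largest nuclear subunit, had 476 to 4070 counts and its partner Cox4i2 had 0 to 3. Cox6a1, Cox7a2 and Cox8a had 190 to 1445, 81 to 768 and 99 to 547 counts, while the muscle forms Cox6a2, Cox7a1 and Cox8b had 0 to 1, 1 to 6 and 0 to 3 counts. Cox7b2 and Cox8c had 0 counts in all 8 libraries; a count of 0 allows up to 3 counts, or 0.0635 to 0.665 CPM depending on the library, for counting error only. Cox6b2, the testis form, reached 25 counts in wild-type BDL replicate 1 and 22 in wild-type control replicate 2 but was at 3 in wild-type control replicate 1, against 207 to 2088 for Cox6b1. Ndufa4l2 stood at 0.132 to 0.667 FPKM and Ndufa4 at 13.3 to 85.4 FPKM. Of the 3 genes for the c ring of the ATP synthase, which encode the same mature protein, Atp5g3 was highest in each library, at 32.2 to 111 FPKM, against 7.03 to 20.8 FPKM for Atp5g1 and 4.19 to 17.6 FPKM for Atp5g2. The order of Atp5g1 and Atp5g2 is uncertain, because counts and FPKM disagree for Atp5g2.

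**Figure D1:**
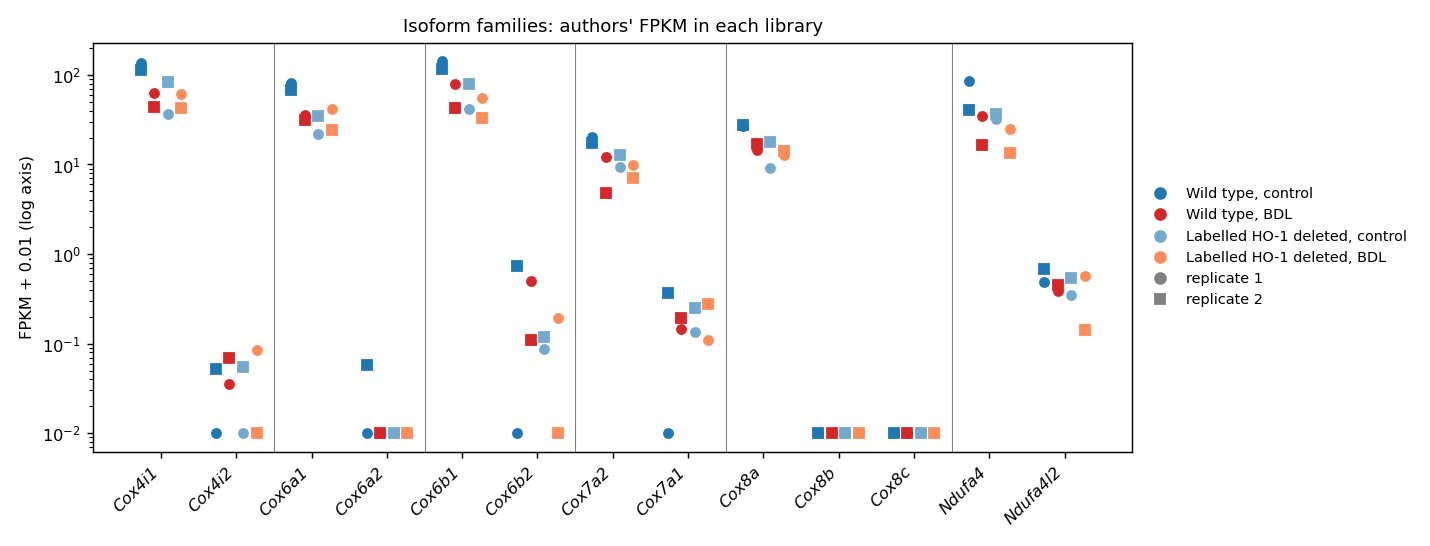
Authors' FPKM plus 0.01 on a log axis for members of 6 isoform families in each of the 8 libraries; colours are the 4 groups, circles and squares are replicates 1 and 2, and points at the bottom are listed at 0. Cox4i1 (36.9 to 134 FPKM), Cox6a1, Cox6b1, Cox7a2 and Cox8a lie far above Cox4i2, Cox6a2, Cox6b2, Cox7a1, Cox8b and Cox8c in each library.

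After the filter on low counts 78 of the 85 members were tested, among 14147 genes: 37 of complex I, 4 of complex II, 8 of complex III, 12 of complex IV and 17 of complex V. The 7 left out were Ndufb4c, Cox4i2, Cox6a2, Cox7a1, Cox7b2, Cox8b and Cox8c, none of which had more than 6 counts in any library. All p-values below are from edgeR's two-sided quasi-likelihood test, adjusted by Benjamini-Hochberg over the 14147 genes, with 2 libraries per group and a call at an adjusted p under 0.05. The labels do not say whether the 2 libraries of a group come from separate animals, so a p-value covers no more than the spread among the libraries, which may be technical.

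In wild type, BDL was followed by lower RNA of members, with calls in complexes I, III, IV and V. The 4 members of complex II were also below 0 but not called. Of the 78 members 27 were called lower and 0 higher, where 6.59% of all genes were called lower and 11.8% higher (18.4% in either direction). The calls were 17 of 37 in complex I, 0 of 4 in complex II, 3 of 8 in complex III, 3 of 12 in complex IV and 4 of 17 in complex V. The log2 fold change was below 0 for 77 of the 78, Cox6b2 being the exception, while 49.2% of all genes were below 0. Its median was -0.70 over the members and 0.02 over all genes tested. By complex the medians were -0.78 (I), -0.49 (II), -0.61 (III), -0.71 (IV) and -0.68 (V). The CPM of 60 members were lower in both BDL libraries than in both controls, against 29.8% of all genes, and 0 members were higher without overlap, against 31.5%.

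These calls rested on few libraries. Most of the 27 calls were lost without either wild-type control replicate, and most were lost without BDL replicate 2. Calls over all genes also became fewer in these fits, less so without BDL replicate 2. The median of the members was -0.60 without control replicate 1 (all genes 0.03) and -0.74 without control replicate 2 (all genes 0.05). Without BDL replicate 1, the female library, the median was -1.08 (all genes 0.01), and without BDL replicate 2 it was -0.46 (all genes -0.01).

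The RN45S share was 10.3% and 17.7% in wild-type controls and 37.1% and 18.8% after BDL. With this share as a covariate 23 of the 27 calls were kept, and 15.6% of all genes were called, against 18.4% in the main fit. Markers of other cells moved as well. The 8 hepatocyte markers, none of them at 0, went from 5.864% to 5.867% of counts other than RN45S in controls to 4.73% to 5.46% after BDL, with 4 of 8 called lower and 0 higher (median log2 fold change -1.10). All 5 cholangiocyte markers were called higher (0.000550% to 0.00122% in controls, 0.00587% to 0.00885% after BDL), as were 5 of 6 tested markers of monocyte-derived macrophages (0.00992% to 0.0111%, then 0.0211% to 0.0302%), 2 of 6 Kupffer cell markers (0.0262% to 0.0322%, then 0.0498% to 0.0618%) and 4 of 6 stellate cell and fibroblast markers (0.0202% to 0.0230%, then 0.189% to 0.197%). Of these lists only Ly6c2 was at 0 in some libraries. The part of these shifts in the lower member levels was not tested.

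**Figure D2:**
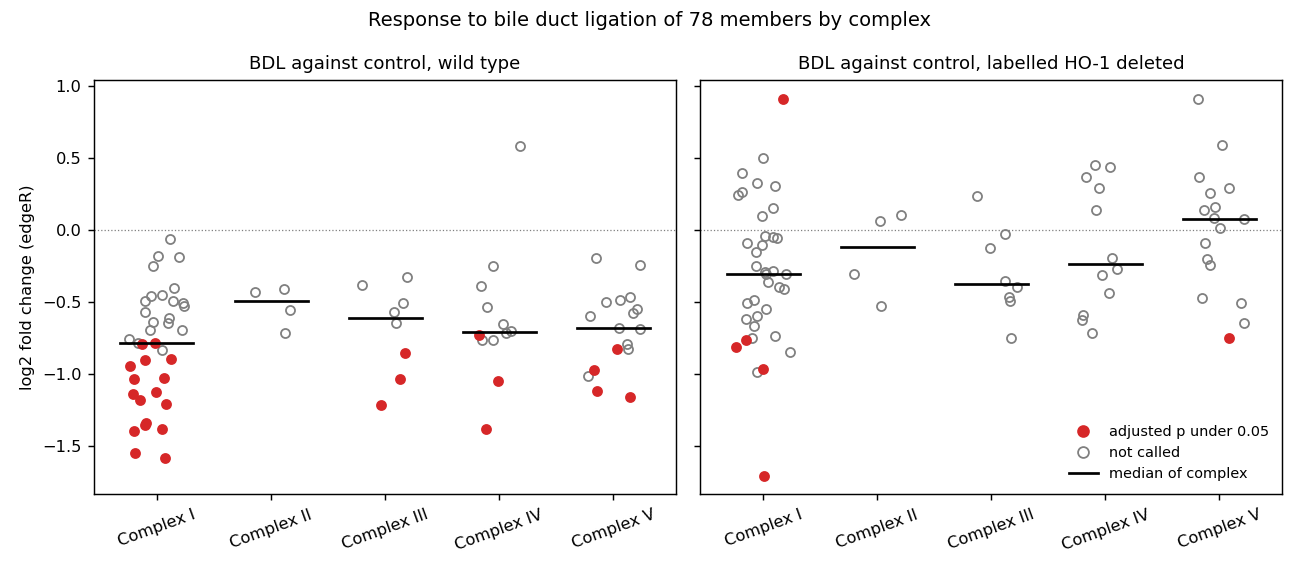
Log2 fold change after BDL (edgeR) of the 78 tested members by complex, in wild type (left) and in the libraries labelled HO-1 deleted (right); each circle is a gene, red marks an adjusted p under 0.05 and bars are medians. In wild type 27 members are red and all lie below 0, and in the libraries labelled HO-1 deleted 5 lie below 0 and 1 above.

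In complex I, 5 of the 7 core subunits encoded in the nucleus, which carry the flavin and the iron-sulfur clusters, were called lower in wild type after BDL, with a median log2 fold change of -0.95 over the 7. Ndufv1 (chr19:4007384-4012806, minus strand, mm10), which binds the flavin and accepts electrons from NADH, was at 90.5 and 77.4 CPM in wild-type controls and 39.4 and 34.7 CPM after BDL. In the libraries labelled HO-1 deleted it was at 49.1 and 71.3 CPM in controls and 37.1 and 49.4 CPM after BDL. The wild-type groups stand clear of each other, and in the other genotype the higher BDL library just passes the lower control. Its log2 fold change in wild type was -1.18 ± 0.25 (SE; edgeR adjusted p = 0.00775). Ndufs7, a cluster subunit next to the quinone site, was at 24.9 and 23.7 CPM in wild-type controls, 10.03 and 11.03 CPM after BDL, 10.6 and 18.1 CPM in controls labelled deleted and 9.13 and 15.1 CPM in BDL labelled deleted. It had both wild-type controls above the other 6 libraries, and its log2 fold change in wild type was -1.21 ± 0.30 (edgeR adjusted p = 0.0156).

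Ndufs1, the largest subunit of the complex, was called lower after BDL in both genotypes. Its CPM were 84.6 and 67.6 in wild-type controls, 44.5 and 43.9 after BDL, 51.3 and 64.6 in controls labelled deleted and 32.3 and 33.9 in BDL labelled deleted. The BDL libraries lay below the controls of their own genotype in each case. The log2 fold change was -0.78 ± 0.22 in wild type (edgeR adjusted p = 0.0279) and -0.81 ± 0.22 in the libraries labelled HO-1 deleted (edgeR adjusted p = 0.0193). Ndufv2 (-1.03, adjusted p = 0.0151 in wild type) and Ndufs3 (-0.95, adjusted p = 0.0232) were also called by edgeR. Ndufs8 had a log2 fold change of -0.69 in wild type and did not pass (edgeR adjusted p = 0.157).

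The other 28 subunits of complex I, the supernumerary ones that surround the core, held 12 calls in wild type. By position, 7 of 16 tested subunits of the matrix arm and 10 of 19 of the membrane arm were called. Ndufb3 (chr1:58586384-58595964, plus strand, mm10), a small membrane-arm subunit, showed the lowest log2 fold change of the members in both BDL comparisons. It was at 22.9 and 13.7 CPM in wild-type controls and 8.36 and 3.66 CPM after BDL, and at 17.5 and 17.8 CPM in controls labelled deleted and 4.68 and 6.65 CPM after BDL. All 4 BDL libraries lay below all 4 controls. The log2 fold change was -1.58 ± 0.37 in wild type (edgeR adjusted p = 0.0128) and -1.70 ± 0.40 in the libraries labelled HO-1 deleted (edgeR adjusted p = 0.00961).

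Ndufb2, another membrane-arm subunit, was at 13.8 and 10.97 CPM in wild-type controls and 5.88 and 3.71 CPM after BDL (log2 fold change -1.35 ± 0.30, edgeR adjusted p = 0.00994). Ndufc2 went from 11.8 and 9.52 CPM to 4.30 and 3.88 CPM in wild type (-1.38 ± 0.31, edgeR adjusted p = 0.01005), and was at 10.9 and 10.5 CPM in controls labelled deleted and 5.11 and 9.97 CPM after BDL. The drop of Ndufc2 was clear of the replicate spread in wild type, whereas the BDL libraries labelled deleted lay far apart from each other. Ndufs6, a zinc-binding subunit of the matrix arm, went from 16.2 and 18.01 CPM to 8.65 and 4.204 CPM (-1.39 ± 0.37, edgeR adjusted p = 0.0226). Ndufa5, in the matrix arm, went from 43.4 and 22.8 CPM to 15.3 and 7.10 CPM (-1.55 ± 0.41, edgeR adjusted p = 0.0276). For both, each BDL library lay below each control, and the Ndufa5 libraries of each wild-type group lay far apart from each other.

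Complex II, which is also an enzyme of the citric acid cycle, had no call in any comparison of the main fit. In wild type after BDL, Sdha, Sdhb and Sdhd were called in 2, 1 and 1 of 21 alternative fits. Sdha, the flavoprotein that oxidises succinate, was at 253 and 248 CPM in wild-type controls, 178 and 127 CPM after BDL, 136 and 185 CPM in controls labelled deleted and 118 and 143 CPM in BDL labelled deleted. Both wild-type controls lay above all other libraries, but the BDL difference in wild type did not pass (log2 fold change -0.72 ± 0.27, edgeR adjusted p = 0.0905). Sdhb, the iron-sulfur subunit, was at 61.2 and 68.8 CPM in wild-type controls and 61.8 and 36.2 CPM after BDL, where the groups overlap (-0.41 ± 0.27, adjusted p = 0.330). The membrane anchors Sdhc (-0.43, adjusted p = 0.375) and Sdhd (-0.56, adjusted p = 0.204) were not called by edgeR either, although their BDL libraries lay below the controls.

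In complex III, the calls in wild type were Uqcrc1, Uqcrc2 and Uqcrq. Uqcrc1 (chr9:108936633-108949623, plus strand, mm10), a core protein on the matrix side, was at 113 and 87.5 CPM in wild-type controls, 49.3 and 37.1 CPM after BDL, 45.3 and 63.0 CPM in controls labelled deleted and 47.5 and 59.2 CPM in BDL labelled deleted. The wild-type controls stood apart from the other 6 libraries, which shared 1 range. The log2 fold change of Uqcrc1 was -1.22 ± 0.26 in wild type (edgeR adjusted p = 0.00791) and -0.03 ± 0.26 in the libraries labelled HO-1 deleted (adjusted p = 0.946). Uqcrc2, the other core protein, went from 55.4 and 49.3 CPM to 33.5 and 17.4 CPM in wild type (-1.04 ± 0.30, edgeR adjusted p = 0.0348). Uqcrq, a small subunit near cytochrome b, went from 56.9 and 39.0 CPM to 31.8 and 21.2 CPM (-0.85 ± 0.26, edgeR adjusted p = 0.0437). The Rieske iron-sulfur protein gene Uqcrfs1 had a log2 fold change of -0.33 in wild type and -0.49 in the libraries labelled HO-1 deleted, neither of them past the threshold by edgeR (adjusted p = 0.339 and 0.124).

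In complex IV, Cox6c, Cox5a and Cox5b were called lower in wild type. Cox6c (chr15:35925886-35938246, minus strand, mm10), a small membrane subunit, was at 47.9 and 34.7 CPM in wild-type controls, 16.1 and 15.7 CPM after BDL, 22.8 and 28.6 CPM in controls labelled deleted and 11.8 and 23.7 CPM in BDL labelled deleted. In wild type the libraries of each group were closer to each other than to the other group, and in the second genotype the groups overlap. The log2 fold change of Cox6c in wild type was -1.38 ± 0.30 (edgeR adjusted p = 0.00904). Cox5a and Cox5b, which sit on the matrix side around the catalytic core, had log2 fold changes of -1.05 ± 0.30 and -0.73 ± 0.21 (edgeR adjusted p = 0.0299 and 0.0307). Cox4i1 was at 109 and 93.6 CPM in wild-type controls and 75.0 and 44.4 CPM after BDL and was not called (-0.76 ± 0.30, adjusted p = 0.102).

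In complex V, 2 of the 5 genes of the F1 head, which makes ATP, were called in wild type. Atp5c1, the gene of the rotating gamma shaft, was at 52.1 and 54.2 CPM in wild-type controls, 35.1 and 24.9 CPM after BDL, 42.2 and 44.9 CPM in controls labelled deleted and 24.4 and 27.7 CPM in BDL labelled deleted. All 4 BDL libraries lay below all 4 controls. The log2 fold change of Atp5c1 was -0.82 ± 0.22 in wild type and -0.75 ± 0.22 in the libraries labelled HO-1 deleted (edgeR adjusted p = 0.0234 and 0.0292). Atp5e, the epsilon subunit, had a log2 fold change of -1.12 ± 0.31 in wild type (edgeR adjusted p = 0.0285).

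The catalytic pair Atp5a1 and Atp5b, the most abundant members, did not pass. Atp5b was at 500 and 409 CPM in wild-type controls, 291 and 222 CPM after BDL, 193 and 322 CPM in controls labelled deleted and 221 and 325 CPM in BDL labelled deleted. Atp5a1 followed the same order of libraries within each group, at 554 and 465, 340 and 248, 225 and 386, and 252 and 365 CPM. The wild-type controls were the highest libraries for both genes, and the controls labelled deleted overlapped both BDL groups. In wild type the log2 fold changes were -0.83 ± 0.33 for Atp5b and -0.79 ± 0.34 for Atp5a1 (edgeR adjusted p = 0.107 and 0.130). Of the membrane part, Atp5k, which encodes the small e subunit, went from 26.8 and 26.7 CPM to 15.9 and 7.86 CPM (-1.16 ± 0.30, edgeR adjusted p = 0.0213), and the c-ring gene Atp5g1 from 11.6 and 9.55 CPM to 6.11 and 4.59 CPM (-0.97 ± 0.29, edgeR adjusted p = 0.0346). The more abundant c-ring gene Atp5g3 was not called (-0.48 ± 0.23, adjusted p = 0.174).

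**Figure D3:**
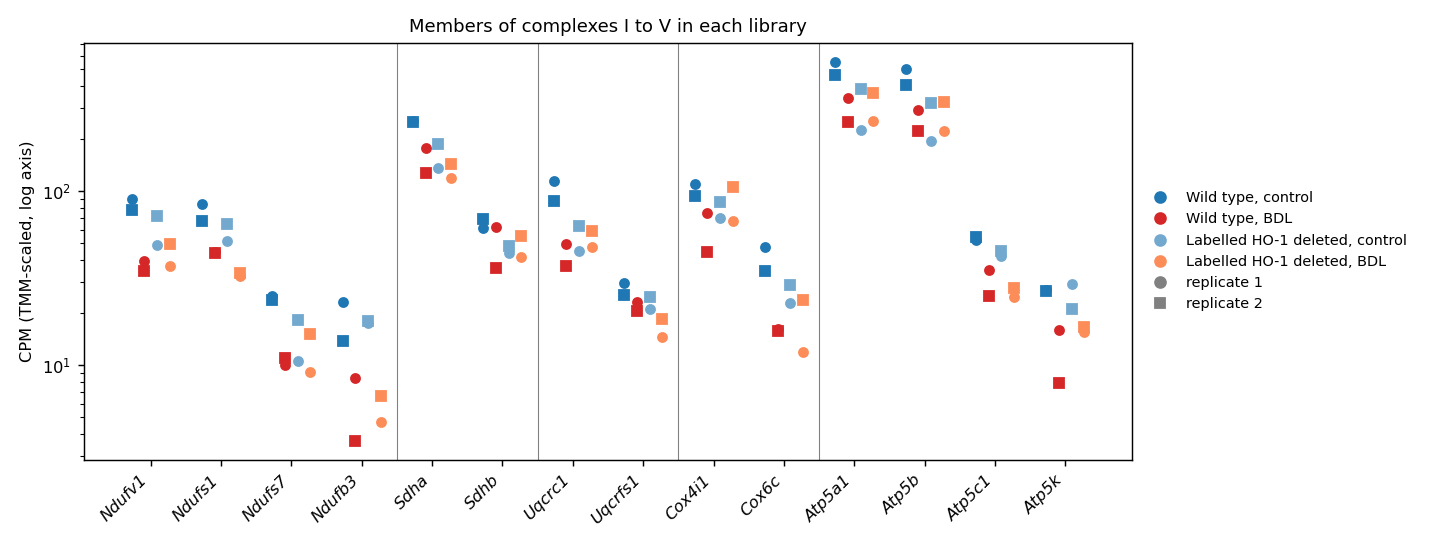
CPM (TMM-scaled, log axis) of 14 members of complexes I to V in each library; colours are the 4 groups, circles and squares replicates 1 and 2, and grey lines part the complexes. For Uqcrc1 and Ndufs7 the wild-type controls stand above the other 6 libraries, and for Ndufb3 all 4 BDL libraries lie below all 4 controls.

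In the libraries labelled HO-1 deleted, BDL was followed by fewer calls: 5 of the 78 members were called lower and 1 higher, where 12.4% of all genes were called lower and 15.1% higher (27.5% in either direction). The share of members called was therefore below that of all genes. The lower members were Ndufb3, Ndufs1, Ndufs3, Ndufb6 and Atp5c1, and the higher one was Ndufa2. The median log2 fold change was -0.25 over the members and -0.03 over all genes, with medians of -0.30, -0.12, -0.37, -0.23 and 0.08 for complexes I to V. It was below 0 for 51 members. The CPM of 25 members were lower without overlap, against 34.3% of all genes, and those of 7 were higher without overlap, against 31.9%. Of the 27 members lower in wild type, 4 (14.8%) were also called lower here, near the 12.4% of all genes called lower here. These 4 of 5 (80%) were Atp5c1, Ndufb3, Ndufs1 and Ndufs3. The same overlap over all genes was not counted. These 2 comparisons share no library, but both use the same estimate of the spread.

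Ndufa2, a subunit of the matrix arm, was the member called against the rest. It was at 7.61 and 10.4 CPM in controls labelled deleted and 15.3 and 19.1 CPM after BDL, and at 16.5 and 11.7 CPM in wild-type controls and 13.2 and 10.5 CPM after BDL. The BDL libraries labelled deleted lay above their own controls and overlapped the wild-type controls. Its log2 fold change was 0.91 ± 0.27 (edgeR adjusted p = 0.0286) there and -0.25 ± 0.26 in wild type (adjusted p = 0.558). Ndufb6, in the membrane arm, was at 8.12 and 8.72 CPM in controls labelled deleted and 4.64 and 3.77 CPM after BDL (-0.96 ± 0.32, edgeR adjusted p = 0.0448). Ndufs3, a core subunit, was at 22.4 and 27.8 CPM and then 11.5 and 19.1 CPM (-0.76 ± 0.26, edgeR adjusted p = 0.0492). In wild type the log2 fold change of Ndufb6 was -0.76 (adjusted p = 0.108).

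The calls in this genotype turned on single libraries, and each of the 6 was lost in at least 1 fit that left a library out. The wild-type libraries enter these fits through the shared estimate of the spread. The method mattered as well: with all libraries kept, Ndufs3 lost its call by DESeq2 and with RN45S removed. With a filter at a mean CPM of at least 1, Ndufs3 and Ndufb6 both lost theirs. Without BDL replicate 1 the median log2 fold change was 0.0019 over the members and -0.06 over all genes. Without BDL replicate 2, the library with the fewest counts, it was -0.50 and -0.04. Without control replicate 1 or 2 of this genotype the median of the members was -0.27 or -0.18. With the female wild-type library and the library with the fewest counts both left out, it was -0.50 (all genes -0.04). That fit leaves 1 library in each BDL group, and for most members the library kept was the lower of the 2. In wild type the median in the same fit was -1.11 (all genes -0.02). RN45S held 55.6% and 22.6% of the control counts and 38.6% and 66.8% of the BDL counts. A covariate for this share kept 2 of the 6 calls, and 24.3% of all genes were called, against 27.5% in the main fit. The hepatocyte markers went from 5.13% to 5.77% of counts other than RN45S in controls to 3.44% to 5.12% after BDL, with 1 of 8 called lower and 0 higher. All 5 cholangiocyte markers, all 6 tested markers of monocyte-derived macrophages and 5 of 6 stellate cell markers were called higher. Of the 6 Kupffer cell markers, 3 were called higher and 1 lower. The part of these shifts in the member levels was not tested.

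The replicates of the BDL groups differed from each other across the members as a whole. On the log2 CPM scale, set against the mean of the wild-type controls, the median over the members was 0.10 and -0.10 in the wild-type controls, -0.44 and -1.03 in wild type after BDL, -0.45 and -0.29 in controls labelled deleted and -0.77 and -0.35 in BDL labelled deleted. Wild-type BDL replicate 1 was above replicate 2 for 72 of the 78 members, against 50.1% of all genes, and in BDL labelled deleted replicate 2 was above replicate 1 for 69, against 48% of all genes. For 48 members wild-type BDL replicate 2 was the lowest of the 8 libraries, against 11% of all genes. For 30 members both wild-type controls lay above the other 6 libraries, against 9.38% of all genes.

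The summed counts compare whole complexes, and each sum is weighted to its genes of most counts. In wild-type control replicate 1, Atp5a1 and Atp5b had 17631 and 15937 of the 122706 member counts. In complex II, Sdha had 8043 counts there, against 1948, 1415 and 620 for Sdhb, Sdhc and Sdhd. The members together held 0.587% and 0.538% of counts other than RN45S in wild-type controls, 0.409% and 0.307% in wild type after BDL, 0.356% and 0.421% in controls labelled deleted and 0.339% and 0.382% in BDL labelled deleted. The wild-type controls were the highest, and the other 3 groups overlapped one another. This order held for each complex: both wild-type controls were above the other 6 libraries for complexes I (0.168% and 0.156%, against 0.0872% to 0.122%), II (0.0575% and 0.0605%, against 0.0334% to 0.0474%), III (0.0618% and 0.0522%, against 0.0282% to 0.0442%), IV (0.0636% and 0.0582%, against 0.0319% to 0.0482%) and V (0.236% and 0.212%, against 0.123% to 0.164%). The balance between complexes in these sums moved little. Complex I took 26.9% to 31.2% of the member counts over the 8 libraries, complex II 9.50% to 11.6%, complex III 9.19% to 11.6%, complex IV 10.4% to 12.9% and complex V 34.6% to 40.5%, with the lowest share of complex V and the highest of complex I both in replicate 1 of the controls labelled deleted.

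**Figure D4:**
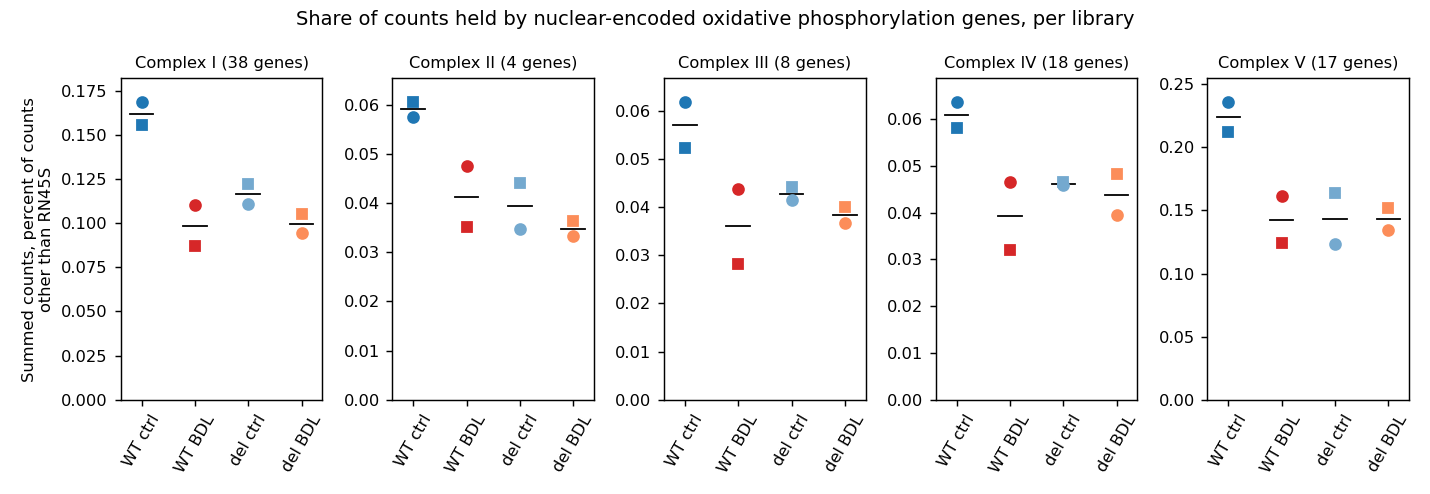
Summed counts of each complex as a percent of counts other than RN45S (linear axes from 0), with the 2 libraries of each group as a circle (replicate 1) and a square (replicate 2) and the group mean as a bar; "del" marks the libraries labelled HO-1 deleted. In each panel the wild-type controls lie above the other 6 libraries, for example 0.168% and 0.156% against at most 0.122% in complex I.

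Between genotypes, no member was called by edgeR. In controls 0 of 78 passed (0.191% of all genes did, 0.113% lower and 0.0778% higher), and DESeq2 called 0. At an unadjusted p under 0.05 by edgeR there were 16 of the 78 members and 968 of the 14147 genes. The median log2 fold change of the libraries labelled HO-1 deleted against wild type was -0.32, with 0.03 over all genes, and 71 members were below 0. The CPM of 49 members were lower without overlap, against 21.4% of all genes, and those of 1 were higher, against 23.4%. Ndufb8, a membrane-arm subunit of complex I, had the smallest adjusted p. It was at 31.1 and 29.97 CPM in wild-type controls and 16.3 and 18.4 CPM in controls labelled deleted, with no overlap (log2 fold change -0.81 ± 0.23, edgeR adjusted p = 0.368). Uqcrc1 (-0.89 ± 0.26, edgeR adjusted p = 0.412) and Atp5j2 (-0.72 ± 0.23, edgeR adjusted p = 0.483) came next. The RN45S share was 10.3% and 17.7% in wild-type controls and 55.6% and 22.6% in controls labelled deleted, and its part in these differences was not tested beyond the fit with that share as a covariate, in which 0 members were called and the median was -0.57.

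After BDL, 0 of 78 members differed between genotypes by edgeR (0.0636% of all genes did, 0.0495% lower and 0.0141% higher), and DESeq2 called 0. At an unadjusted p under 0.05 by edgeR there were 4 of the 78 members and 1670 of the 14147 genes. The median log2 fold change was 0.21, with -0.01 over all genes; it was 0.020 with the RN45S share as a covariate, -0.53 with scaling by total counts and -0.30 on FPKM, where for total counts and FPKM the medians over all genes were -0.69 and -0.32. The CPM of 14 members were higher without overlap, against 17.8% of all genes, and those of 4 were lower, against 20.5%. Ndufa13, a membrane-arm subunit, was at 26.6 and 22.9 CPM in wild type after BDL and 36.0 and 54.7 CPM in BDL labelled deleted (0.86 ± 0.28, edgeR adjusted p = 0.296).

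The difference between the BDL effects of the genotypes was tested as an interaction, and 0 members passed by edgeR (0.00707% of all genes did, 1 gene, which was below 0). At an unadjusted p under 0.05 by edgeR there were 11 of the 78 members and 1316 of the 14147 genes, and DESeq2 called 1 member, Ndufa13. The median interaction was 0.53 on the log2 scale, with -0.02 over all genes, and 67 of 78 members were above 0, that is, their fitted log2 fold change after BDL was higher in the libraries labelled HO-1 deleted than in wild type. For 4 members the CPM were lower after BDL in wild type and higher after BDL in the other genotype, both without overlap, against 1.36% of all genes, and 0 members showed the opposite pattern, against 1.7%. Ndufa13 was at 55.4 and 46.0 CPM in wild-type controls and 25.004 and 38.5 CPM in controls labelled deleted, and its fitted BDL effect was -1.03 in wild type and 0.50 in the other genotype (interaction 1.53 ± 0.39, edgeR adjusted p = 0.350, DESeq2 adjusted p = 0.0497). Uqcrc1 (1.19 ± 0.37, edgeR adjusted p = 0.385) and Cox6a1 (1.15 ± 0.34, edgeR adjusted p = 0.384) followed. That a complex had many calls in wild type and few in the other genotype therefore does not show that the genotypes differ.

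The genes around the respiratory chain were counted in the same fits. The shares of all genes to set beside each list are 6.59% lower and 11.8% higher in wild type, and 12.4% lower and 15.1% higher in the other genotype. The 13 tested mobile carriers and exchange proteins had 3 called higher and 3 lower in wild type after BDL, and in the other genotype 3 higher and 2 lower. Slc25a4, an ADP/ATP exchanger of the inner membrane at a mean of 1.48 CPM in wild-type controls, was higher in both (log2 fold change 1.62 and 1.76, edgeR adjusted p = 0.01004 and 0.00539). Atpif1, the inhibitor of the ATP synthase, was higher in both as well (1.15 and 1.33, edgeR adjusted p = 0.0101 and 0.00407). Cycs, which encodes cytochrome c, was lower in both (-1.39 and -0.99, edgeR adjusted p = 0.0111 and 0.0446).

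Of 47 tested assembly factors 4 (8.51%) were called lower and 0 higher in wild type (median log2 fold change -0.37), a share near that of all genes, among them Ecsit and Ndufaf6 for complex I (-1.11 and -1.36, edgeR adjusted p = 0.00475 and 0.00891). In the libraries labelled HO-1 deleted 5 (10.6%) were lower and 0 higher (median -0.52), below the share of all genes called lower, with Cox20, for complex IV, at -1.65 (edgeR adjusted p = 0.00290). The 78 genes of the mitochondrial ribosome, which makes the subunits encoded in the organelle, had 8 lower (10.3%) and 0 higher calls in wild type (median -0.49), and 7 lower (8.97%) and 3 higher in the other genotype (median -0.27), where the share called lower was below that of all genes. Mrpl3 was lower in both, at -0.79 and -1.49 (edgeR adjusted p = 0.0305 and 0.00134).

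The pathways that feed the chain had mostly lower calls. In the citric acid cycle list 8 of 18 genes were called lower and 0 higher after BDL in wild type (median -0.73), and in the other genotype 5 were lower and 1 higher (median -0.20). Fh1, the fumarase gene, had log2 fold changes of -1.49 in wild type and -0.92 in the other genotype (edgeR adjusted p = 0.000992 and 0.00925). In fatty acid oxidation 9 of 15 were called lower and 0 higher in wild type (median -1.08), and 7 lower and 0 higher in the other genotype (median -0.80). Eci2, an isomerase for unsaturated fatty acids, was at -2.13 and -1.70 (edgeR adjusted p = 0.000661 and 0.00154), and Cpt2, which completes the carnitine shuttle, was at -1.12 and -1.16 (edgeR adjusted p = 0.00699 and 0.00561).

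Of 20 regulators of mitochondrial genes 5 were called lower in wild type and 8 in the libraries labelled HO-1 deleted, with 0 higher in both. Esrrg had the smallest p of the list in both, at -2.75 and -5.92 (edgeR adjusted p = 0.00124 and 0.000307), but its level was low. Its mean was 2.92 CPM in wild-type controls and 0.425 CPM after BDL, and 2.27 and 0.0193 CPM in the other genotype. Ppara, a receptor that drives fatty acid oxidation genes in hepatocytes, was at -1.52 and -1.69 (edgeR adjusted p = 0.00437 and 0.00195), and Lrpprc, which stabilises RNA in mitochondria, at -0.87 and -1.09 (edgeR adjusted p = 0.0199 and 0.00531). Glycolysis had mostly higher calls, with 3 of 15 genes called higher and 1 lower in wild type, and 7 higher and 0 lower in the other genotype (medians 0.04 and 0.75). Pkm, the pyruvate kinase of most cells other than hepatocytes, was at 1.98 and 2.86 (edgeR adjusted p = 0.00116 and 0.000143), and Hk2, an inducible hexokinase, at 1.87 and 1.52 (edgeR adjusted p = 0.00110 and 0.00236). No gene of these lists was called between genotypes or in the interaction by edgeR.

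**Figure D5:**
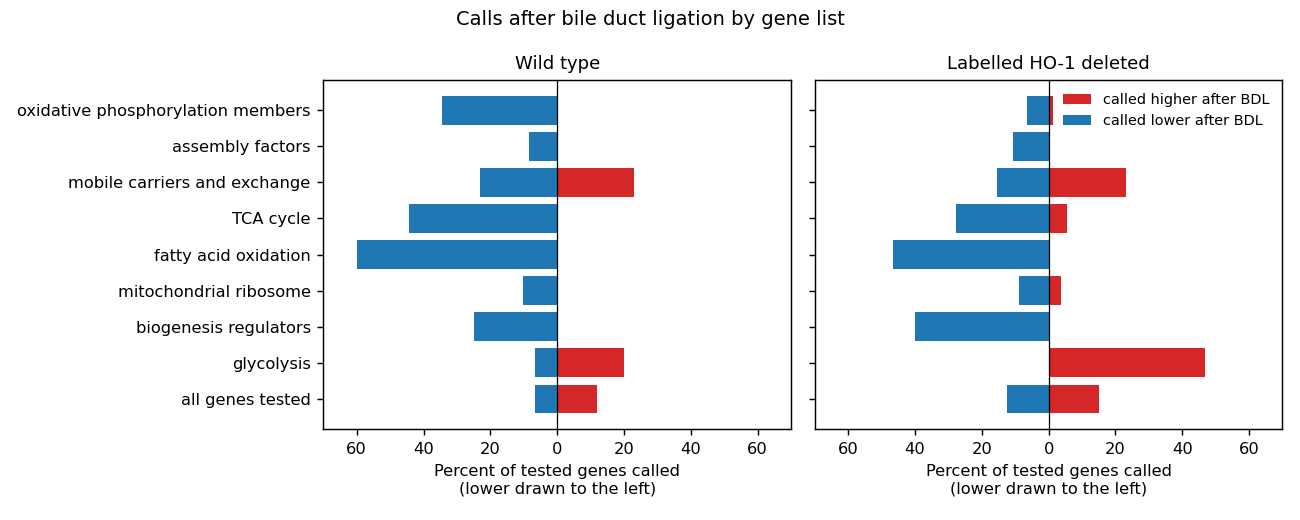
Percent of tested genes called higher (red, to the right) and lower (blue, to the left) after BDL (edgeR, adjusted p under 0.05) in each list, in wild type and in the libraries labelled HO-1 deleted. In wild type the oxidative phosphorylation members (27 of 78), the citric acid cycle (8 of 18) and fatty acid oxidation (9 of 15) have lower calls and 0 higher calls, while 6.59% of all genes are called lower.

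Some members are uncertain because the count table and the FPKM table disagree about them, as happens where reads are shared with copies or overlapping genes. Atp5l had 11 to 76 counts but 7.63 to 58.8 FPKM; its mean FPKM of 23.9 was near the 22.2 of Uqcrc1, which had 3612 counts in wild-type control replicate 1 where Atp5l had 46. Ndufb4c had 0 to 2 counts beside 1.77 to 5.84 FPKM. The c-ring gene Atp5g2 had a mean of 12.4 FPKM, near the 11.2 of Atp5g1, but a mean of 2.38 CPM against 8.25 CPM for Atp5g1. Ndufs5 showed the opposite, with 12 to 175 counts but an FPKM of 0.000085 to 2.78. None of these was called in any comparison by edgeR, and the largest fold difference among them, Atp5l between genotypes after BDL (log2 fold change 2.12 ± 0.77, edgeR adjusted p = 0.331), rested on 28 counts in replicate 2 of BDL labelled deleted.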

How the data were processed

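Libraries of ribosome-associated RNA were made from liver after depletion of ribosomal RNA, with a strand-specific kit, per the labels' protocols. STAR 2.7.3a and Cufflinks are listed, with mm10 as the build, in the submitters' processing notes; counting strand, annotation release and treatment of multiply mapped reads are not given in the sources used here. The authors deposited read counts per gene symbol, used unchanged, and a table of FPKM, used for levels between genes and as an alternative. Positions are from GENCODE vM21.

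Genes were kept by filterByExpr, scaled with edgeR's TMM method (factors 0.460 to 1.41, effective sizes 4.51 to 47.2 M) and fitted with edgeR 4.0.16 (R 4.3.3; robust quasi-likelihood, 4 group means, 8 libraries, 4 residual degrees of freedom, common biological coefficient of variation 23.0%). The fit was tested on simulated data. CPM use effective sizes. Groups of 2 limit precision to what 4 residual degrees of freedom give, and libraries of fewer counts carry more counting error. DESeq2 1.42.0 and limma 3.58.1 on log2 FPKM (pseudocounts 1 and 0.1) were alternatives, with other scalings, filters, an RN45S covariate and left-out libraries.

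Members and lists were chosen with earlier results of these data known. Named were core and catalytic subunits, isoform families, per comparison and complex the 3 members with the smallest p at a mean CPM of at least 1, calls against the majority, and up to 4 genes of smallest p per list; Uqcrh, Uqcr11, Ndufs6, Ndufa5, Ndufb6, Ndufb7, Ndufa8, Ndufs5, Ndufb4c and Atp5l were named after their values were seen. No sequence is printed for members outside the promoter table.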

Additional observations from a re-analysis of the deposited data

Results flagged for a closer look

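For 4 of the 78 members (5.13%, against 1.36% of all genes) BDL moved the genotypes in opposite directions without overlap: both BDL libraries were below both controls in wild type and above both controls in the libraries labelled HO-1 deleted. Cox6a1, the common form of a complex IV subunit, was at 45.4 and 38.3 CPM in wild-type controls and 30.1 and 21.3 CPM after BDL, and at 28.7 and 25.02 CPM in controls labelled deleted and 31.9 and 42.1 CPM after BDL, an interaction of 1.15 on the log2 scale (edgeR adjusted p = 0.384). Atp5j2, the f subunit of the ATP synthase, went from 33.4 and 33.5 CPM to 29.4 and 18.9 CPM in wild type and from 18.9 and 21.5 CPM to 30.6 and 30.1 CPM in the other genotype, an interaction of 1.05 (edgeR adjusted p = 0.396). Ndufb7, a membrane-arm subunit of complex I, went from 37.6 and 33.2 CPM to 28.3 and 20.7 CPM and from 24.4 and 25.7 CPM to 31.1 and 35.2 CPM, an interaction of 0.92 (edgeR adjusted p = 0.436). Ndufa8, also in the membrane arm, went from 19.7 and 17.0 CPM to 14.5 and 8.95 CPM and from 15.9 and 14.6 CPM to 17.8 and 16.0 CPM, an interaction of 0.79 (edgeR adjusted p = 0.537). None of the 4 interactions passed the threshold. With the female library and the library with the fewest counts left out, the interaction of Atp5j2 was 1.45. That fit leaves 1 library in each BDL group.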

How the results depend on the processing

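Of the fold changes printed for single genes, 3 that were not called changed sign: Ndufa2 in wild type after BDL (-0.47 to 0.0079 without 1 library, above 0 without wild-type control replicate 1), Cox6b2 in the same comparison (-0.25 to 2.62 without 1 library, below 0 without that library, and -0.041 on FPKM with no filter) and Uqcrc1 in the libraries labelled HO-1 deleted (-0.25 to 0.22 without 1 library, and 0.0021 with a mean CPM of at least 1). In wild type after BDL, 782 of 1026 refitted values kept their sign and side of the threshold, 229 lost the call and 12 gained it; in the other genotype these were 388, 110 and 3 of 504. In wild type after BDL, called members numbered 0 with scaling by total counts (median of all genes -0.12), 4, 2 and 0 on FPKM (pseudocounts 1 and 0.1, and no filter; medians of all genes -0.34, -0.45 and -0.07), 54 with the female library and the shallowest one both left out, and 0 to 41 without 1 library; the median of the members was -1.11, -1.16 and -1.10 on FPKM, -1.11 without those 2 libraries and -1.08 to -0.46 without 1. In the libraries labelled HO-1 deleted, called members numbered 1 with total counts, 0, 1 and 0 on FPKM, 2 with the RN45S covariate, 18 without the 2 libraries and 2 to 10 without 1 library; the median was -0.59 with total counts (all genes -0.31), -0.50 without the 2 libraries and -0.50 to 0.0019 without 1. Calls over all genes became fewer as well with total counts and on FPKM. In wild type 3.89% of all genes were called with total counts, against 18.4% in the main fit. On FPKM 4.13%, 3.21% and 1.43% were called. In the libraries labelled HO-1 deleted 6.49% were called with total counts, against 27.5% in the main fit. On FPKM 4.94%, 5.54% and 1.25% were called there. Between controls the median of the members was -0.83 with total counts (all genes -0.51) and -0.57 with the covariate. On FPKM it was -1.10, -1.14 and -1.08 (all genes -0.50, -0.69 and -0.22). Between BDL groups it was -0.53 with total counts, -0.30, -0.32 and -0.28 on FPKM and -0.084 to 0.45 without 1 library. The interaction had 1 call by DESeq2 and 1 without a low-count filter (Ndufa13 in both). Its median was 0.79, 0.83 and 0.75 on FPKM and 0.23 to 0.81 without 1 library. The cause was not tested. With all counts as the denominator the members held 0.485% (wild-type control), 0.253% (wild-type BDL), 0.242% (control labelled deleted) and 0.167% (BDL labelled deleted). Where a library is left out, the lone sample is assumed to vary like the other groups. No paired analysis was run, because nothing in the labels used here links a control library to a BDL library. The labels carry no replicate numbers, and those used here only tell the libraries of a group apart. With 2 libraries a group, and 3.25 M counts other than RN45S in the shallowest library, smaller differences in members of low counts were not detectable at this depth.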
